A study of Mus musculus with 2 samples.

Results

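Matrix Gla protein (Mgp), the BMP ligands Bmp2 and Bmp4, the BMP antagonist Grem1, the targets of BMP signalling Id1 and Id3, and the mineralization genes Spp1, Alpl and Runx2 were examined in cultures labelled as mouse cavernous endothelial cells (MCECs) by RNA sequencing. These 9 genes were chosen by symbol out of 23183 gene symbols, with earlier results of these data in view. The lower level of Mgp was among them, so the levels of the 9 genes are given as a description and none was tested. All 9 were found in both libraries, and all 9 passed the filter of 1 FPKM or more in at least one library, which 12109 genes passed. FPKM is the number of sequenced fragments scaled to transcript length and library size, and it allows levels to be compared between genes. Rows of a gene were summed. Where 2 values are given for a gene, the first is that of the library with HBS.

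Each condition had 1 library. By the labels, both were made from primary MCECs of C57BL/6J mouse penis, labelled as mouse corpus cavernous tissue, in high-glucose medium (HG). The medium held the vehicle HEPES-buffered saline (HG+HBS) or pericyte-derived nanovesicles (HG+PC-NVs). The study's methods give 30 mM glucose and 1 µg/mL PC-NVs. PC-NVs were obtained by pressing mouse cavernous pericytes through filters, and they carry contents of these cells, so RNA of the vesicles and RNA of the cultured cells cannot be told apart in the treated library. By the study's methods the cells had spent 72 hours in glucose and 24 hours with PC-NVs, whereas the labels state a glucose exposure of 5 days. The libraries hold roughly 13300000 (HG+HBS) and 11600000 (HG+PC-NVs) fragments, estimated from low FPKM values. With 1 library per condition the spread between cultures is unknown, and no difference below has a replicate check.

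Bone morphogenetic proteins (BMPs) are secreted ligands of the TGF-beta superfamily. They bind pairs of type I and type II receptors, which phosphorylate Smad1, Smad5 and Smad9, and these enter the nucleus with Smad4 and raise the Id genes. Antagonists such as gremlin and noggin bind the ligands outside the cell. Mgp is a secreted protein with gamma-carboxylated glutamate residues that binds calcium mineral and BMPs, and mice that lack it calcify their arteries. In the vessel wall, BMP signalling is known both for endothelial maintenance and for calcification.

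The labelled cell type was checked with marker genes. Of 12 endothelial markers, 7 were under 1 FPKM in both libraries, among them Kdr, Tek, Tie1 and Vwf. Of the 5 that passed the filter, Pecam1 had 1.05 and 0.938 FPKM and Flt1 1.19 and 0.835 FPKM. Cdh5 had 5.05 and 5.73 FPKM, Egfl7 9.48 and 8.57 FPKM, and Esam, the highest, 17.4 and 11.7 FPKM. The summed endothelial level was 36.4 FPKM with HBS and 29.4 FPKM with PC-NVs. Fibroblast markers were far more abundant, with all 7 at 36.3 FPKM or more in both libraries and a sum of 2003 and 2325 FPKM. Only Dcn was higher with PC-NVs, past 2-fold at 623 and 1283 FPKM, and the other 6 were lower. The libraries are therefore named here by their treatment, and the cells of the cultures from which the RNA of the 9 genes came cannot be told apart.

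**Figure D1:**
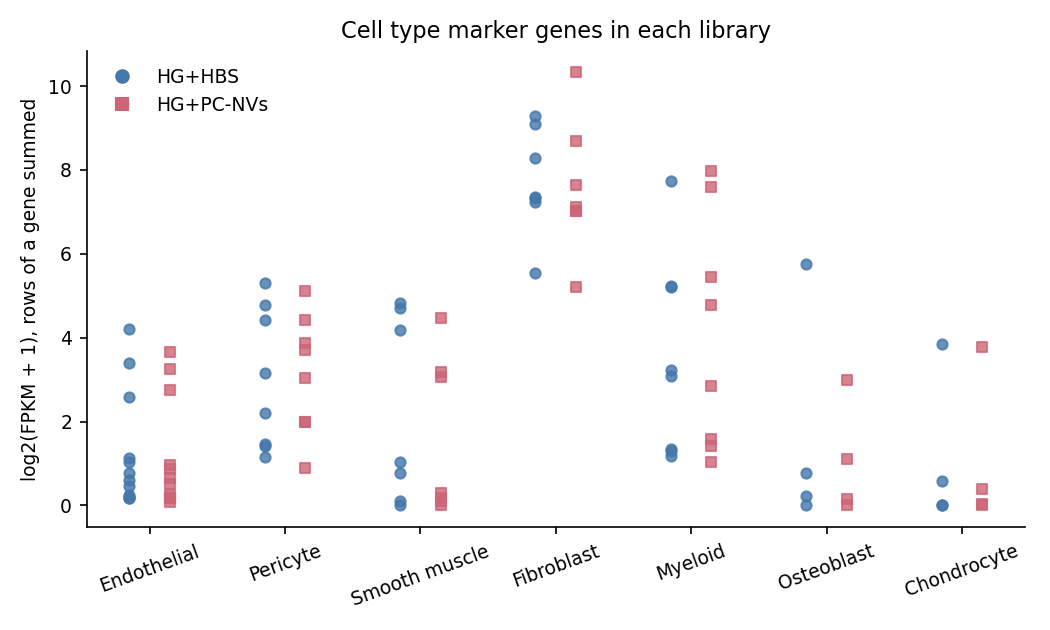
Levels of cell type marker genes as log2(FPKM + 1), each point 1 gene, in HG+HBS (circles) and HG+PC-NVs (squares). The fibroblast markers, from 36.3 to 1283 FPKM, lie above all endothelial markers, which reach at most 17.4 FPKM.

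Markers of other cell types differed between the libraries alongside the 9 genes. The 7 smooth muscle markers summed to 72.1 FPKM in HG+HBS (0.0108 to 27.6) and 37.0 FPKM in HG+PC-NVs (0.0122 to 21.2), and all 4 that passed the filter were lower, 2 of them past 2-fold. Des, 1 of the 4 and within 2-fold, passed the filter only through HG+HBS, where it was higher (1.07 and 0.137 FPKM). Myh11, the defining marker of that list, was near 0 in both. The 8 myeloid markers summed to 305 and 525 FPKM (1.25 to 212 and 1.06 to 252), with 4 higher and 4 lower and 2 past 2-fold, both higher. The 8 pericyte markers summed to 102 and 94.0 FPKM (1.21 to 38.4 and 0.855 to 33.7), with 3 higher and 5 lower. Past 2-fold were 2, both higher, and the median log2 ratio of the list was -0.19. Mcam, 1 of the 5 lower, passed the filter only through HG+HBS, where it was higher (1.21 and 0.855 FPKM). Of the 4 osteoblast markers, Dmp1 made up nearly all of the sum of 54.4 and 8.27 FPKM, and of the 4 chondrocyte markers 1 passed the filter, Sox9, with 13.4 and 12.8 FPKM. The 10 housekeeping genes had a median log2 ratio of 0.19, with 8 higher and 2 lower and 0 past 2-fold. Fewer cells of a type and less RNA per cell cannot be told apart in such libraries, and the part of these markers in the levels of Mgp, Bmp4 and Alpl was not tested.

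Mgp was lower in HG+PC-NVs. Its level was 1614 FPKM with HBS and 462 FPKM with PC-NVs. The log2 ratio, taken here and below on the log2(FPKM + 1) scale as HG+PC-NVs over HG+HBS, was -1.80. In rank among the 12109 genes it went from 36 to 182, and its share of the summed FPKM went from 0.309% to 0.0796%. Mgp (chromosome 6 of GRCm38, 136872435 to 136875823, reverse strand) had 1 row in the files, worth about 13283 and 3306 fragments. The ratio of its FPKM values was 0.286, with a 95% exact interval of 0.276 to 0.297 that covers counting error only, as do all intervals below.

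Genes with a like ratio were looked for among the 1274 genes with a log2 level above 6 in HG+HBS. That level was required in the library where Mgp was high and not in the other, so genes that are low with PC-NVs could enter the set. Genes below that level in HG+HBS, such as Bmp4 with a log2 ratio of -1.77, were not compared. In this set Mgp ranked 2 from the lowest ratio. The 5 genes with a log2 ratio nearest to that of Mgp lay 0.30 to 0.71 above it. The nearest was Lsp1, which encodes a leukocyte-specific protein, at 128 and 44.6 FPKM. The chemokine gene Cxcl12 followed with 88.4 and 31.3 FPKM, and Cyp2f2, a cytochrome P450 gene, with 132 and 52.4 FPKM. With 2 libraries a likeness of pattern is no more than a like ratio.

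**Figure D2:**
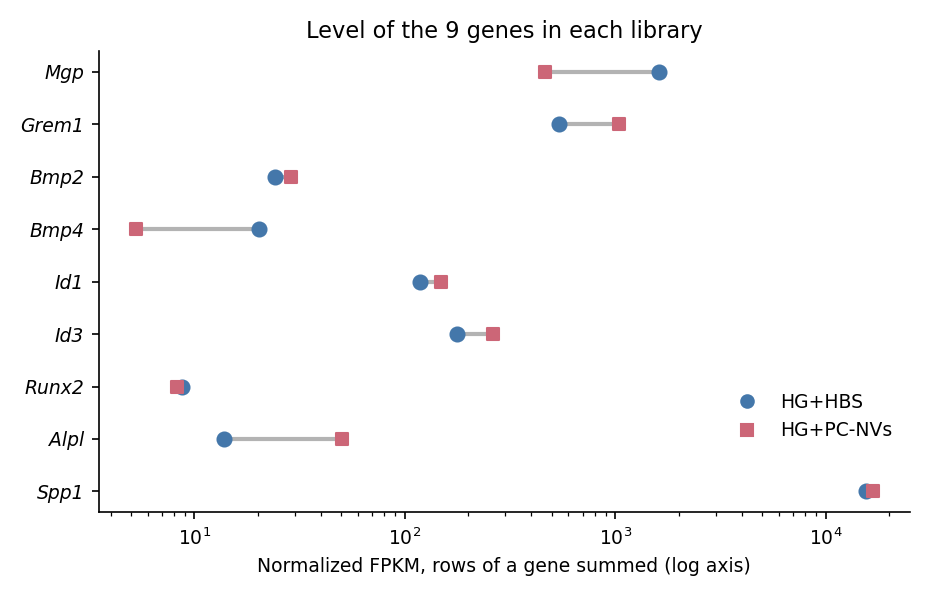
Level of each of the 9 genes in HG+HBS (circles) and HG+PC-NVs (squares), as normalized FPKM on a log axis, 1 library per condition. Mgp and Bmp4 sit to the left in HG+PC-NVs, Alpl and Grem1 to the right, and Spp1 and Runx2 almost coincide.

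From the highest level to the lowest, the order with HBS was Spp1, Mgp, Grem1, Id3, Id1, Bmp2, Bmp4, Alpl and Runx2. With PC-NVs it was Spp1, Grem1, Mgp, Id3, Id1, Alpl, Bmp2, Runx2 and Bmp4. Without replicates, neighbours in these orders cannot be separated from the spread between cultures.

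Of the 9 genes, 3 differed by more than 2-fold, which was taken as the threshold for a difference. Alpl was higher and Mgp and Bmp4 were lower in HG+PC-NVs. Over all 12109 genes, 3.39% passed 2-fold, 2.52% higher and 0.867% lower. Since the 9 genes were chosen with values of this comparison known, nothing is read from that difference. Of the genes at 10 FPKM or more in at least one library, 3.41% passed 2-fold. At 1.5-fold, Alpl and Grem1 were higher and Mgp and Bmp4 lower, where 9.49% of all genes passed, and at 4-fold 0 of the 9 passed, where 0.677% of all genes did. The study used a fold change over 4 with a log2 value over 6. Read as a log2 level over 6 in each library, these thresholds were passed by 0 of the 9 and by 0.588% of the genes above that level, whereas Mgp passed them, with a log2 ratio of -2.03, once quantile normalization was applied between the libraries. Just inside the threshold was Bmp4 with an absolute log2 ratio of 1.77, and just outside was Grem1 with 0.94. The median log2 ratio was 0.25 over the 9 genes and -0.01 over all genes.

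**Figure D3:**
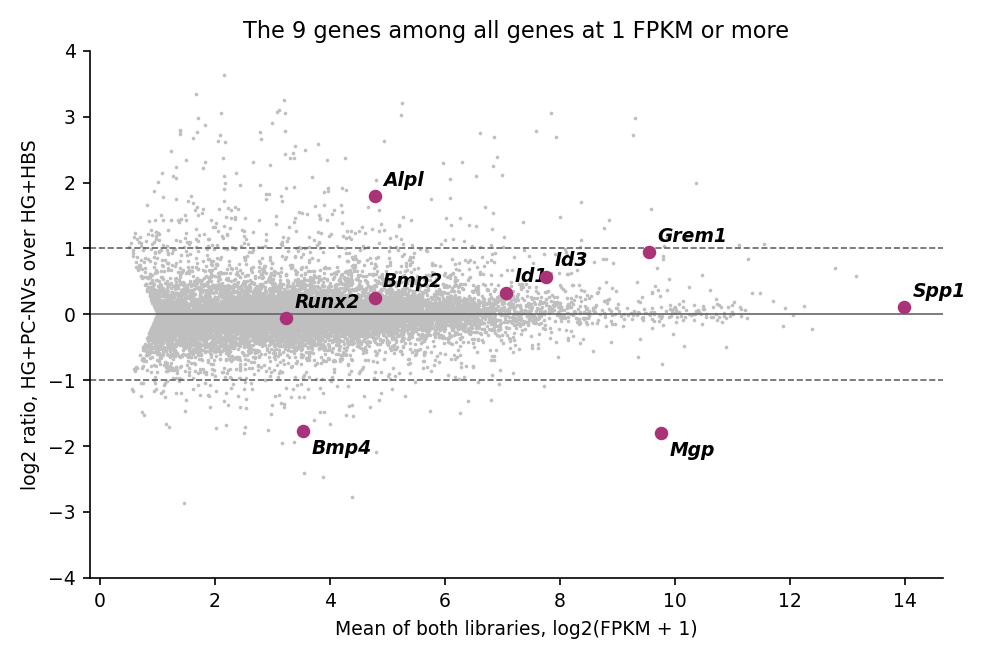
The log2 ratio of HG+PC-NVs over HG+HBS against the mean level of both libraries, for 12109 genes (grey) and the 9 genes (purple), with dashed lines at 2-fold and 14 genes outside the plotted range. Mgp lies at -1.80 among abundant genes, and Bmp4 at -1.77 lies among less abundant genes.

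The ligands differed from each other. Bmp4, which induces ventral mesoderm and bone, had 20.4 FPKM with HBS and 5.26 FPKM with PC-NVs (chromosome 14, 46383520 to 46390669). The FPKM ratio was 0.258 with an interval of 0.207 to 0.323, from about 443 and 99.6 fragments. Bmp2, its close relative, had 24.1 and 29.0 FPKM (chromosome 2, 133552159 to 133562885), a ratio of 1.20 with an interval of 1.11 to 1.30. Bmp2 was thus 1.19 times the level of Bmp4 with HBS and 5.50 times with PC-NVs. The sum of both went from 44.5 to 34.2 FPKM.

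Of the 14 BMP ligand genes listed, 4 passed the filter, and Bmp4 and Bmp6 were past 2-fold, both lower. Bmp6, a ligand known for its control of hepcidin in iron balance, passed the filter only through the library with HBS, where it was higher, and does not count with 1 FPKM or more required in both libraries. It had 1.87 FPKM with HBS and 0.285 FPKM with PC-NVs. By its shortest coding transcript the latter rests on about 1.96 fragments, so that the interval of its FPKM ratio ran from 0.0170 to 0.659. Bmp5 had 0.760 and 1.16 FPKM. The other 10 ligand genes, among them Bmp7, Gdf2 and Bmp10, were under 1 FPKM in both libraries.

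Grem1 encodes gremlin 1, which binds BMP2 and BMP4 and blocks their receptors' access. It had 540 FPKM with HBS and 1037 FPKM with PC-NVs (chromosome 2, 113746164 to 113758646), an FPKM ratio of 1.92 with an interval of 1.89 to 1.95. Grem1 moved in rank from 146 to 90. The level of Grem1 was 0.334 times that of Mgp with HBS and 2.24 times with PC-NVs, so the order of these 2 abundant genes was opposite in the libraries.

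Of the 17 genes listed as BMP antagonists or modulators, Mgp included, 10 passed the filter. Besides Mgp, 1 was past 2-fold. Fst, which encodes follistatin, a binder of activins and some BMPs, had 52.5 and 136 FPKM, higher with PC-NVs. Nbl1, which encodes another secreted BMP antagonist, had 320 and 245 FPKM, and noggin (Nog) and the sclerostin gene (Sost) were under 1 FPKM in both libraries. Summed over the whole list, the level was 2596 FPKM with HBS and 1964 FPKM with PC-NVs. Without Mgp the direction was opposite, with 981 and 1501 FPKM, of which Grem1 alone held 540 and 1037 FPKM. The median log2 ratio of the 10 genes was 0.16, and 6 of the 10 were higher.

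The receptor and Smad genes that passed the filter stayed within 2-fold. None of the 8 receptor and co-receptor genes that passed the filter, out of 11, was past 2-fold, and their median log2 ratio was -0.05, with a range from -0.59 (Rgmb, a co-receptor) to 0.16. The most abundant was Acvr1, a type I receptor gene, with 36.3 and 38.4 FPKM. Bmpr2, the type II receptor gene, had 19.6 FPKM in each library. None of the 4 Smad genes was past 2-fold, and their summed level was 56.7 FPKM with HBS and 56.4 FPKM with PC-NVs. Their log2 ratios ran from -0.48 to 0.11. The lowest was that of Smad9, with 1.94 and 1.10 FPKM, an FPKM ratio of 0.568 with an interval of 0.421 to 0.767.

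Id1 and Id3 encode inhibitors of basic helix-loop-helix factors and are direct targets of the BMP Smads. Id1 had 118 FPKM with HBS and 149 FPKM with PC-NVs (chromosome 2, 152736251 to 152737410), and Id3 had 176 and 263 FPKM (chromosome 4, 136143497 to 136145755). Both were higher in HG+PC-NVs, by a log2 ratio of 0.33 for Id1 and 0.57 for Id3, and both stayed within 2-fold. The FPKM ratio of Id3 was 1.49 with an interval of 1.42 to 1.56. Over all genes, 48.3% had a higher level in HG+PC-NVs, whereas 8 of the 10 housekeeping genes did. With quantile normalization between the libraries, the log2 ratio was 0.24 for Id1 and 0.43 for Id3.

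The other 2 Id genes lay on the same side. Id2 had 14.7 and 19.4 FPKM, and Id4 had 7.31 and 17.8 FPKM, the only one past 2-fold of 11 targets that passed the filter, out of 12 listed. Hey1, a target shared with the Notch pathway, was under 1 FPKM in both libraries. The inhibitory Smad genes Smad6 and Smad7, which are targets of the pathway too, had log2 ratios of 0.15 and 0.24. Bambi, a pseudoreceptor gene, had 9.03 and 5.97 FPKM. The median log2 ratio of the 11 targets was 0.15, with 8 higher and 3 lower. Msx2, 1 of the 8, passed the filter only through HG+PC-NVs, where it was higher (0.866 and 1.05 FPKM). With 1 FPKM or more required in both libraries, the median was 0.19.

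**Figure D4:**
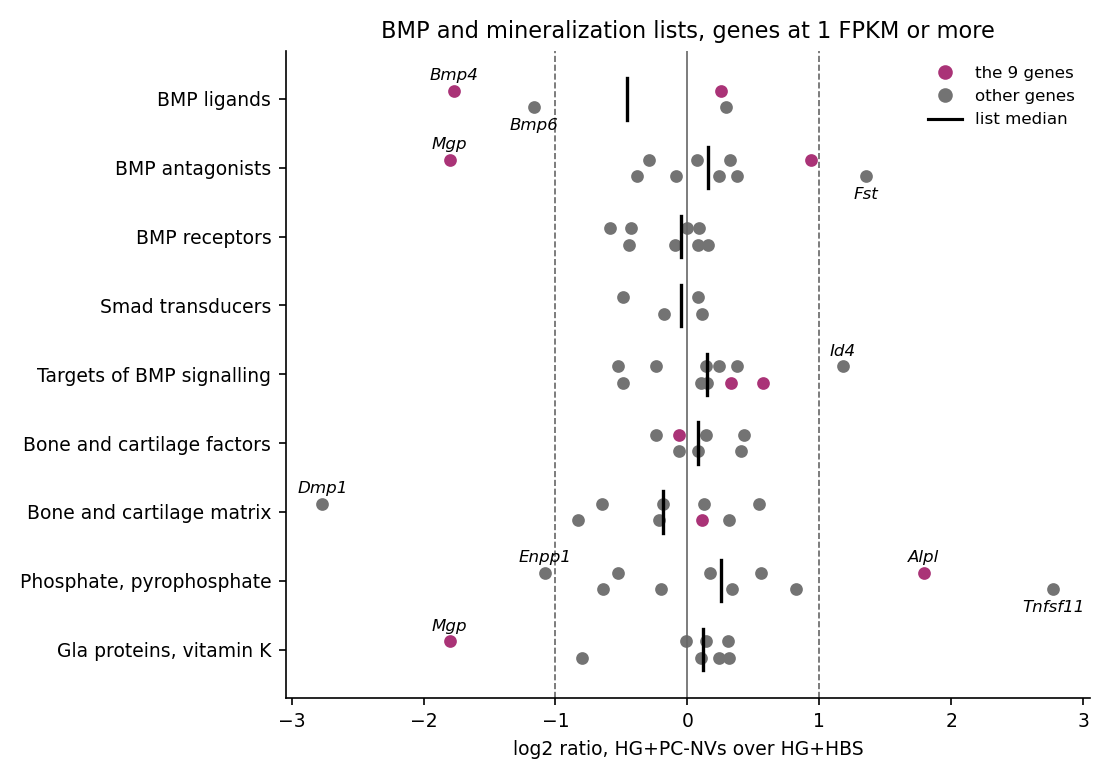
The log2 ratio of each gene at 1 FPKM or more in at least one library, by list, with the 9 genes in purple, list medians as black bars and dashed lines at 2-fold; a gene on 2 lists is drawn in each. The receptor and Smad lists stay within 2-fold, while the outlying genes Dmp1, Mgp, Bmp4, Alpl and Tnfsf11 lie on both sides.

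Spp1, which encodes osteopontin, an acidic phosphoprotein of bone that restrains crystal growth and is also made by macrophages, was the most abundant of all genes in both libraries. It had 15551 FPKM with HBS and 16778 FPKM with PC-NVs (chromosome 5, 104435118 to 104441050), or 2.98% and 2.89% of the summed FPKM. Its log2 ratio was 0.11. Of its 5 rows, 1 held 97.4% of the level in HG+HBS, and 4 were above 0, all 4 higher in HG+PC-NVs.

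Alpl, the gene of tissue-nonspecific alkaline phosphatase, which degrades the mineralization inhibitor pyrophosphate, was higher in HG+PC-NVs. It had 13.8 FPKM with HBS and 50.2 FPKM with PC-NVs (chromosome 4, 137741733 to 137796384). The FPKM ratio was 3.64 with an interval of 2.85 to 4.68. Of its 3 rows, 1 was at 0 in both libraries, and the other 2 went from 8.55 to 35.8 FPKM and from 5.24 to 14.5 FPKM. Both expressed rows were therefore higher.

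Runx2, the transcription factor that starts osteoblast differentiation, had 8.69 and 8.30 FPKM (chromosome 17, 44495987 to 44814797), a log2 ratio of -0.06. The interval of its FPKM ratio ran from 0.614 to 1.45. Its 8 rows did not share a direction. Of the 7 above 0, 4 were higher and 3 were lower, among them a row at 2.07 FPKM with HBS and 0 with PC-NVs and a row at 0.00286 and 1.68 FPKM. The files do not name the transcript of a row, and Supt3, a gene on the opposite strand that overlaps Runx2, had 14.2 and 9.86 FPKM.

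**Figure D5:**
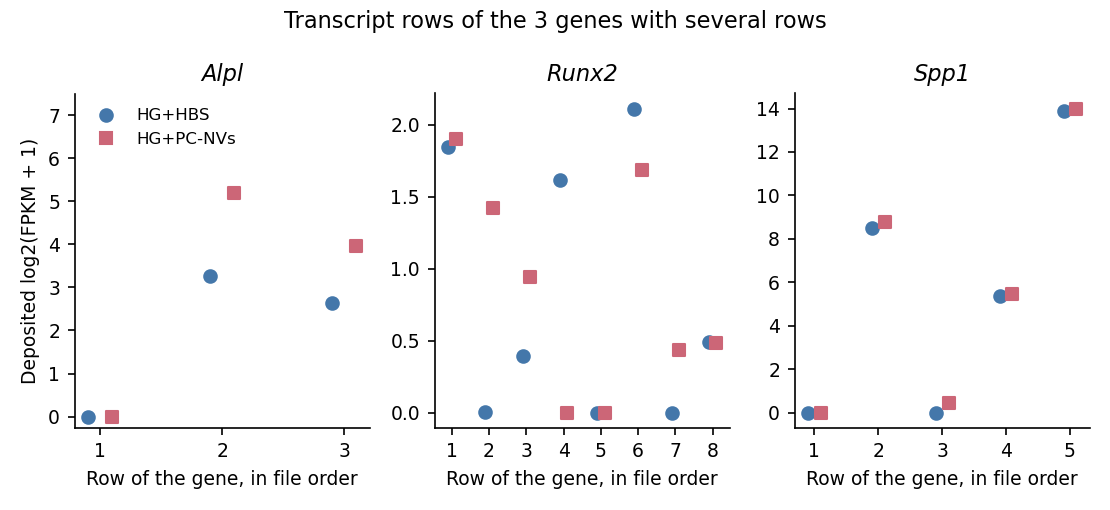
Deposited log2(FPKM + 1) values of each row of Alpl, Runx2 and Spp1 in HG+HBS (circles) and HG+PC-NVs (squares), rows numbered in file order, with a different vertical scale in each panel. The 2 expressed Alpl rows are both higher in HG+PC-NVs, the Runx2 rows go both ways, and 1 Spp1 row near 14 holds nearly all of its level.

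Other bone genes were listed by role. Of 12 bone and cartilage transcription factor genes, 7 passed the filter and 0 were past 2-fold. The highest was Twist1, a mesenchymal factor, with 122 and 164 FPKM, and the osteoblast factor gene Sp7 had 0.164 and 0.114 FPKM. Of 17 bone and cartilage matrix genes, 9 passed the filter and 1 was past 2-fold. This was Dmp1, which encodes an acidic matrix protein of osteocytes and dentin, with 53.5 FPKM with HBS and 7.01 FPKM with PC-NVs, an FPKM ratio of 0.131 with an interval of 0.114 to 0.151. The bone sialoprotein gene Ibsp was listed at 0 in both, and Bglap and Bglap2, whose near-identical copies could share reads, had at most 1.18 FPKM.

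Of 12 genes of phosphate and pyrophosphate handling and bone turnover, 10 passed the filter and 3 were past 2-fold, Alpl and Tnfsf11 higher and Enpp1 lower. Enpp1, which makes pyrophosphate from ATP, had 28.0 FPKM with HBS and 12.7 FPKM with PC-NVs, an FPKM ratio of 0.454 with an interval of 0.403 to 0.509. Ank, a gene needed for the release of ATP and pyrophosphate from cells and the most abundant of the list, had 141 and 90.1 FPKM. Tnfsf11, the gene of RANK ligand, which drives osteoclast formation, had 1.65 and 17.1 FPKM, and Tnfrsf11b, the gene of its decoy receptor, had 0.235 and 1.19 FPKM.

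Mgp needs vitamin K for its carboxylation. The carboxylase gene Ggcx had 11.0 and 12.3 FPKM, and the vitamin K reductase gene Vkorc1 had 93.9 and 93.1 FPKM. Of the 8 genes of Gla proteins and the vitamin K cycle, all passed the filter and only Mgp was past 2-fold. Gas6, a Gla protein gene that encodes a ligand of the TAM receptors, had 102 and 58.2 FPKM. Over all 9 lists, which hold 102 genes, 66 genes passed the filter and 9 of them were past 2-fold, 4 higher and 5 lower. With 1 FPKM or more required in both libraries it was 4 higher and 4 lower, and with a pseudocount of 0.1 it was 5 higher and 6 lower. Without the 9 genes this was 6 of 57, or 10.5%, beside 3.39% of all genes. The lists were also drawn up with earlier results known, so nothing is read from these shares.

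The upstream sequences of Bmp4 and Alpl, which differed by more than 2-fold, and of Grem1 and Spp1, the most abundant members with an upstream sequence at hand, are shown from RefSeq on GRCm38.p6 (250 bases before an annotated start, 5′ to 3′ on the strand of the gene). Capitals mark GGCGCC, the core of a GC-rich BMP response element, or TGTGGT, the core of RUNX sites, which reads ACCACA on the other strand. A search for the SMAD palindrome GTCTAGAC found it in none of the 8 windows of the 6 members with a RefSeq sequence.
Bmp4, chr14:46390670-46390919, reverse strand: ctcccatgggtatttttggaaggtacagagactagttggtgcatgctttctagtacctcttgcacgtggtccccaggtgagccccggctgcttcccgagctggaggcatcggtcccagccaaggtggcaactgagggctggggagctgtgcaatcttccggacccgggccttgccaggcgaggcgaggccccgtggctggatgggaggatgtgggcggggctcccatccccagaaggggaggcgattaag
Grem1, chr2:113758649-113758898, reverse strand: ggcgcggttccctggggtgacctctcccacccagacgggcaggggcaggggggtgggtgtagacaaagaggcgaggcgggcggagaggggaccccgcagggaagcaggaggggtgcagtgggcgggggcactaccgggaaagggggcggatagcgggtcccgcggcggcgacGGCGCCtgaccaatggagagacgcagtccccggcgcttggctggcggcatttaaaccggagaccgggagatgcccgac
Alpl, chr4:137796385-137796634, reverse strand: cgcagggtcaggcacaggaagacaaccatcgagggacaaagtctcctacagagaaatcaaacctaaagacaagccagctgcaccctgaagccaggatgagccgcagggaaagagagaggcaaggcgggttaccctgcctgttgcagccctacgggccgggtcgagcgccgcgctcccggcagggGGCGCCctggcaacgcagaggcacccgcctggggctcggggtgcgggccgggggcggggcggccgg
Spp1, chr5:104434861-104435110, forward strand: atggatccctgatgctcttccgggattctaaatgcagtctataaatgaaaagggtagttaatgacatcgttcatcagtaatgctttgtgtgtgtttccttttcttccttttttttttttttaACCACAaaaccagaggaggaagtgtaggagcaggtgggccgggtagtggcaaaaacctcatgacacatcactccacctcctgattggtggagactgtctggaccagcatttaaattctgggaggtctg

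GGCGCC starts 78 bases before the start of Grem1 and 66 bases before the first of 2 annotated starts of Alpl, and 9.59% of all 32851 windows of this length hold it. ACCACA starts 128 bases before the first of 2 annotated starts of Spp1, and 14.0% of all windows hold TGTGGT on either strand. In the Runx2 window, which is not printed here, ACCACA starts 80 bases before the start. The Bmp4 and Id3 windows and those of the second starts of Alpl and Spp1 hold none of these motifs. A match is a description of the letters in this window.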

How the data were processed

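RNA was sequenced from 2 libraries of cultures labelled as MCECs, 1 per condition. According to the study's methods and the labels, the authors made stranded libraries, trimmed the reads, mapped them to mm10 with TopHat, obtained read counts from BEDTools and FPKM from Cufflinks, and applied edgeR in R with quantile normalization. The deposited columns do not share 1 distribution. With each library sorted, 2318 rows differed by more than 0.05 on the log2 scale. Summed FPKM was 521666 with HBS and 580717 with PC-NVs. A further quantile normalization therefore changes the values. Versions and annotation are not given in the sources used here. The authors deposited log2 values, read as log2(normalized FPKM + 1) from their range up to 13.99, for 33299 rows without transcript names and 23183 symbols.

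Values were used as deposited and converted with 2^value - 1, and rows of a symbol were summed. Ratios were taken as log2 with a pseudocount of 1 for 12109 genes at 1 FPKM or more in at least one library. A difference past 2-fold was counted, and no test was made. The members and lists were chosen with earlier results of these data known, and 1 listed gene is not reported here. The genes named are the 9 genes, list genes past 2-fold or highest in a list, and genes near Mgp in ratio. The last were taken from those with a log2 level above 6 in HG+HBS. Further list genes were picked as examples after their values were seen. Gene coordinates and transcript lengths are from GENCODE M21 (GRCm38, the build named mm10).

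The worth of 1 fragment was the most frequent low value of FPKM times length over 2189 genes with a single transcript longer than 1500 nt and 1 row (0.0750 for the HBS library and 0.0862 for the PC-NV library, with further peaks at 1.99 and 2.01 times these). Fragments per gene use the shortest coding transcript, so they are approximate. They are too low, and the intervals too wide, where a longer transcript gave the fragments. Intervals are exact binomial (Clopper-Pearson, 95%). The calculations were tested on simulated data. Calculations used scipy 1.17.1, pandas 2.3.3 and numpy 2.4.6 under Python 3.11.15, and plots matplotlib 3.10.9. Other normalizations, pseudocounts, fold thresholds, filters on low values and ways to combine rows were tried.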

Additional observations from a re-analysis of the deposited data

How the results depend on the processing

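Alpl higher and Mgp and Bmp4 lower by more than 2-fold held with quantile normalization between the libraries, upper-quartile scaling, median centring, a pseudocount of 0.1 and the highest row of each gene in place of the sum. All 45 log2 ratios of the 9 genes under these alternatives kept their sign, and 39 of them stayed within the counting interval. Mgp went to -2.03 with quantile normalization, which takes it past 4-fold, and the cause was not tested. With the same normalization Grem1 went from 0.94 to 0.75, Id3 from 0.57 to 0.43 and Id1 from 0.33 to 0.24. The threshold set the count of members: a fold of 1.5 gave 2 higher, a fold of 4 gave 0 higher and 0 lower, and 4-fold with log2 above 6 in each library gave 0 and 0. With quantile normalization and those thresholds, Mgp passed. The 4 higher and 5 lower genes over all lists became 5 and 6 with a pseudocount of 0.1, and 4 and 4 with 1 FPKM or more in both libraries or 10 FPKM or more in at least one. Of 72 list medians under alternatives, 60 stayed within 0.1 on the log2 scale. The median of the BMP ligands, which rests on 4 genes, moved most, from -0.45 to -0.04 without the filter and to -0.84 with a pseudocount of 0.1. That of the BMP antagonists went from 0.16 to -2.51e-05 without the filter. The filter of 10 FPKM or more was chosen after seeing the data. No paired analysis was possible because there was 1 library per condition, and no replicate could be left out. Depth limits Bmp6 and the Runx2 rows more than Mgp, Grem1 or Spp1.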
